A study of Danio rerio with 14 samples.

Results

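Collagen genes were followed in whole zebrafish (Danio rerio) embryos that carry a knockout of mttp and in their siblings. The members were all genes whose symbol has the form of a collagen alpha chain (col, a number, the letter a and a number) and that held at least 10 counts over the 14 libraries, which gave 57 of the 36109 genes in the count table. All 57 also passed the filter on low counts that left 24424 genes for testing. Of the 57, 55 name collagen alpha chains. The other two, col4a3bpa and col4a3bpb, carry an older symbol of the ceramide transfer protein, a cytosolic lipid carrier that is not a collagen, and are described apart from the chains.

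The study sequenced RNA of whole embryos labelled mttp knockout, made with CRISPR/Cas9, and of untreated embryos labelled sib, at 48 hours post fertilization (hpf; 3 mutant and 3 sibling libraries) and at 24 hpf (4 mutant and 4 sibling libraries). The product of mttp, microsomal triglyceride transfer protein, adds lipid to apolipoprotein B and thereby lets yolk lipid reach the embryo as lipoprotein, and the comparison addresses how embryos develop when this export is impaired. The labels give neither the alleles carried by the siblings nor the strain, and do not say whether replicates came from separate clutches. The p-values therefore cover the spread between these libraries, which may be technical. Libraries of 1 stage share 1 batch label and the stages have different ones, which means that an effect of stage and one of batch cannot be told apart. In RNA of whole embryos, fewer cells of a type and less RNA per cell cannot be told apart either.

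Collagens are secreted proteins made of alpha chains wound into a triple helix. Fibrillar types (I, II, V, XI) form the cables of skin, tendon, bone, cartilage and the notochord sheath, FACIT types (such as IX, XII, XIV) bind to the surface of these fibrils, and type IV forms the sheet of basement membranes. Short chain types VIII and X form hexagonal networks, type X being the product of hypertrophic cartilage and, in fish, of bone-forming cells. Type VI makes beaded filaments around muscle and other cells, type VII anchors the epidermis to the dermis, type XVII spans the membrane of basal skin cells at hemidesmosomes, and multiplexins XV and XVIII sit in basement membrane zones. Chains are hydroxylated and folded in the endoplasmic reticulum, leave it by COPII transport, are trimmed by ADAMTS and BMP1 proteinases outside the cell and are then cross-linked. Many zebrafish chains exist as a pair of gene copies marked a and b, whose reads can have been counted for either copy or for none where their sequences are alike.

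Values below are CPM, counts divided by library size scaled with TMM factors, given as mean ± SD over the libraries of a group, and log2 fold changes ± SE with p-values of edgeR's quasi-likelihood test, adjusted by Benjamini-Hochberg over all 24424 genes. That test gives no SE. The SE printed is the size of the log2 fold change divided by the square root of the test's F statistic, and so is not independent of the p-value. A gene was called at an adjusted p under 0.05. CPM are not corrected for gene length, so levels are compared between groups and not between genes. RNA of mttp itself was lower in every mutant library than in every sibling library of its stage, at 8.40 ± 2.7 CPM in mutants and 29.4 ± 9.62 CPM in siblings at 48 hpf (n = 3 each), and at 9.68 ± 1.51 CPM in mutants and 71.2 ± 5.77 CPM in siblings at 24 hpf (n = 4 each). Library totals ranged from 29422983 to 46534187 counts. Replicate 3 of the siblings at 48 hpf and replicate 2 of those at 24 hpf stood apart with 0.696% and 0.847% of counts on mitochondrially encoded genes, against 1.27% to 1.97% in the other 12 libraries.

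The 55 chains together took a larger share of the embryo's counts at 48 hpf than at 24 hpf. In mutants they held 2.35% ± 0.152 of all counts at 48 hpf (n = 3) and 1.35% ± 0.0769 at 24 hpf (n = 4). In siblings they held 3.10% ± 0.802 at 48 hpf (n = 3) and 1.46% ± 0.230 at 24 hpf (n = 4). At 48 hpf the mutant libraries held 2.19%, 2.36% and 2.49% and the sibling libraries 2.60%, 2.68% and 4.03%, so the groups did not overlap, but the gap between the nearest libraries was small and the highest sibling value came from replicate 3, a library of low mitochondrial share. At 24 hpf the mutant libraries ran from 1.24% to 1.42%, within the sibling range of 1.20% to 1.74%, whose highest value was replicate 2, the other such library. Without replicate 3 the siblings at 48 hpf held 2.64% ± 0.0587 (n = 2). The part that this library difference has in the collagen values was not tested. Some values are given with and without replicate 3, while others that also moved are given with all libraries only.

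**Figure D1:**
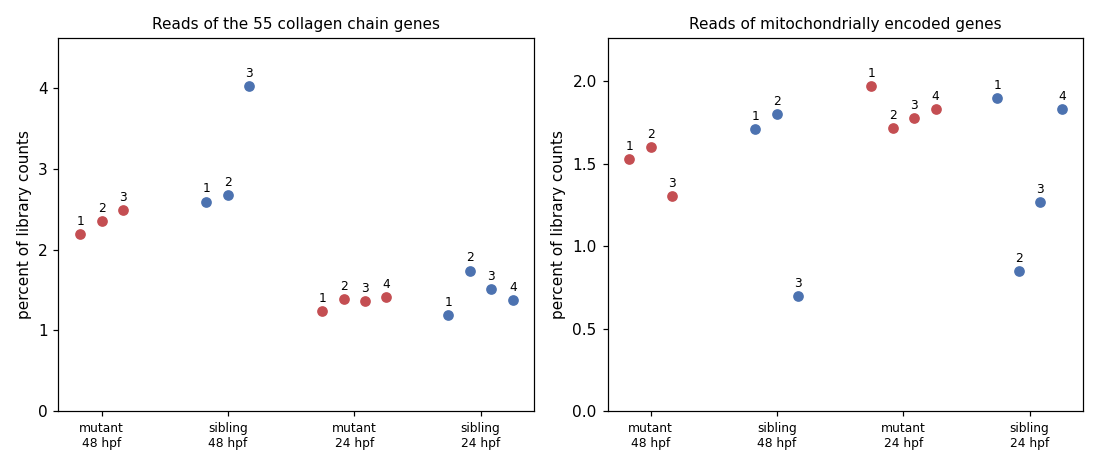
Percent of each library's counts on the 55 collagen chain genes (left) and on mitochondrially encoded genes (right), 1 point per library with its replicate number, mutants in red and siblings in blue. Sibling replicate 3 at 48 hpf combines the highest collagen share, 4.03%, with the lowest mitochondrial share, 0.696%, and sibling replicate 2 at 24 hpf has the highest collagen share of its stage.

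Most collagen genes differed between 48 and 24 hpf in both genotypes. In mutants 35 of the 57 members rose and 11 fell, against 23.6% of all tested genes called higher and 19.6% called lower at 48 hpf. In siblings 38 members rose and 13 fell, against 26.2% and 26.3% of all tested genes. The median log2 fold change of the 55 chains, 48 over 24 hpf, was 0.79 in mutants, where the median over all genes was -0.0020, and 1.13 in siblings, where it was -0.040. Over 18 settings of the fit and of the libraries kept, the median of the chains ran from 0.73 to 0.87 in mutants and from 0.92 to 1.18 in siblings. The comparisons in mutants and in siblings share no library.

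Most fibrillar chain genes rose from 24 to 48 hpf in both genotypes. In mutants 13 of the 16 were higher and 1 was lower at 48 hpf, and in siblings 15 were higher and 1 was lower. Type I collagen, the main collagen of skin, tendon and bone, has 3 chain genes in zebrafish, and all 3 rose in both genotypes. In mutants col1a1a averaged 4797 ± 459.9 CPM at 48 hpf and 1705 ± 153 CPM at 24 hpf, a log2 fold change of 1.49 ± 0.21 (adjusted p = 2.03e-05). In siblings it averaged 7194 ± 2954 CPM at 48 hpf and 2124 ± 543 CPM at 24 hpf, a log2 fold change of 1.76 ± 0.21 (adjusted p = 2.27e-06). No library of the later stage overlapped any of the earlier stage in either genotype. Its copy col1a1b rose by a log2 fold change of 1.74 in mutants and 1.98 in siblings, and col1a2, the alpha 2 chain, by 1.34 in mutants and 1.55 in siblings. Without sibling replicate 3 at 48 hpf the values in siblings were 1.37 for col1a1a, 1.54 for col1a1b and 1.09 for col1a2, all still called.

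The type II and XI chains, which build fibrils of cartilage and of the notochord sheath, also rose in both genotypes. The type II gene col2a1a rose by a log2 fold change of 0.54 ± 0.19 in mutants (adjusted p = 0.029) and 0.84 ± 0.19 in siblings (adjusted p = 0.00134), its copy col2a1b by 0.60 and 0.65, and the type XI genes col11a1a, col11a1b and col11a2 by 0.55, 0.87 and 0.94 in mutants and by 0.67, 1.13 and 1.29 in siblings. Without sibling replicate 3 at 48 hpf the rise of col2a1a in siblings was 0.51 ± 0.16, close to that in mutants, and it stayed called. The rise in siblings was then 0.47 for col2a1b and 0.52 for col11a1a, and both stayed called. Among the type V chains, which nucleate fibrils, col5a1 and col5a2b rose, by 0.43 and 1.42 in mutants and by 0.53 and 1.85 in siblings, and col5a2a was called higher in siblings at 0.37 and was not called in mutants at 0.28 (adjusted p = 0.0673). The copies of col5a3 went opposite ways. The a copy col5a3a was the fibrillar gene that fell. It measured 17.5, 19.7 and 23.5 CPM in mutants at 48 hpf, against 109.8, 114.7, 113.1 and 111.0 CPM in mutants at 24 hpf. In siblings it measured 15.5, 19.3 and 18.2 CPM at 48 hpf, against 119, 142, 133 and 123 CPM at 24 hpf. The stages were far apart in both genotypes, with log2 fold changes of -2.47 ± 0.11 in mutants (adjusted p = 4.4e-11) and -2.87 ± 0.12 in siblings (adjusted p = 7.09e-12). Its copy col5a3b rose, by 1.83 ± 0.18 in mutants and 1.77 ± 0.18 in siblings.

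The network chains held the steepest rise. RNA of col10a1a, which encodes the type X chain, measured 31.6, 19.8 and 15.7 CPM in mutants at 48 hpf, against 0.128, 0.0583, 0 and 0 CPM in mutants at 24 hpf. In siblings it measured 47.1, 34.8 and 46.3 CPM at 48 hpf, against 0, 0, 0 and 0.0608 CPM at 24 hpf. The gene was thus near 0 in all 8 libraries at 24 hpf and present in all 6 at 48 hpf. The sibling libraries held 4632 counts of it at 48 hpf and 2 at 24 hpf, a ratio of 2820 after scaling to library size, with an exact 95% interval of 780 to 23300, which covers counting error only. All 14 counts of col10a1a were even, with counts of 0 taken as even. Of all counts between 1 and 10 in the table, which leaves out those of 0, 77.3% were even. Counts may therefore not be independent, and with each pair of counts taken as 1 the interval is 505 to 111000. The fitted log2 fold changes, 8.85 ± 0.45 in mutants and 11.14 ± 0.50 in siblings, depend on the prior count and are not bounds.

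Among the other network chains, col8a1a, a type VIII chain, fell by a log2 fold change of 1.71 ± 0.12 in mutants (adjusted p = 7.06e-09) and by 1.33 ± 0.12 in siblings (adjusted p = 8.37e-08). The 6 type IV genes of basement membranes went different ways. They lie in 3 pairs of neighbours with no protein-coding gene between them in the RefSeq annotation of the assembly GRCz12tu, on chromosomes 9, 15 and 7. The pair on chromosome 9, col4a1 and col4a2, which encodes the chains of nearly all basement membranes, rose by 0.79 and 0.58 in mutants and by 0.99 and 0.78 in siblings. Without sibling replicate 3 at 48 hpf this pair rose by 0.92 and 0.60 in siblings. The pair on chromosome 15, col4a3 and col4a4, was called lower in both genotypes, with col4a4 at -1.06 in mutants and -0.62 in siblings. The pair on chromosome 7, col4a5 and col4a6, was called in neither genotype, and col4a5 differed by 0.14 ± 0.12 in mutants (adjusted p = 0.379) and 0.22 ± 0.12 in siblings (adjusted p = 0.144), or 0.044 without sibling replicate 3 at 48 hpf.

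Of the 11 FACIT genes 10 rose and 1 fell in each genotype. RNA of col9a1a, a chain of the type IX collagen that coats cartilage fibrils, averaged 61.2 ± 5.23 CPM in mutants at 48 hpf and 10.4 ± 2.61 CPM at 24 hpf, a 5.87-fold rise, and 93.0 ± 8.71 CPM in siblings at 48 hpf and 12 ± 1.93 CPM at 24 hpf, a 7.76-fold rise. The type XIV copies, which encode a fibril-bound collagen of skin and tendon, went opposite ways. The copy col14a1b rose 7.03-fold in mutants and 7.25-fold in siblings, and col14a1a fell 3.50-fold in mutants and 3.53-fold in siblings. Type XII, of the same subfamily, rose in both genotypes, with col12a1a at log2 fold changes of 1.43 in mutants and 1.30 in siblings.

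All 4 type VI genes of the table rose in both genotypes. The genes col6a1, col6a2 and col6a3, whose chains assemble into 1 molecule, rose by log2 fold changes of 1.86, 2.17 and 2.08 in mutants and by 2.25, 2.34 and 2.36 in siblings, and col6a4a by 1.47 in mutants and 1.68 in siblings. The anchoring fibril genes fell instead. RNA of col7a1 fell by 0.71 ± 0.10 in mutants and by 0.52 ± 0.10 in siblings on the log2 scale, and col7a1l, named as like it, by 1.44 and by 1.39. The type XXVIII gene col28a2a fell by 1.56 in mutants and by 1.45 in siblings, while its copy col28a2b, a gene of low counts, was called higher in siblings at 4.48 ± 0.66 and was not called in mutants at 1.42 ± 0.60 (adjusted p = 0.0669).

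Both type XVII genes of basal skin cells rose from low levels. RNA of col17a1a measured 108.9, 131 and 126 CPM in mutants at 48 hpf, against 1.19, 2.33, 2.56 and 2.88 CPM in mutants at 24 hpf, a 54.1-fold rise (log2 fold change 5.76 ± 0.26, adjusted p = 3.98e-11). In siblings it measured 177, 201 and 263 CPM at 48 hpf, against 1.91, 1.42, 3.38 and 3.10 CPM at 24 hpf, an 87.1-fold rise (6.44 ± 0.27, adjusted p = 8.35e-12). The stages stood wide apart in both genotypes. Its copy col17a1b rose 26.5-fold in mutants and 26.7-fold in siblings. Among the multiplexins, col18a1b was 6.12-fold higher in mutants and 6.41-fold higher in siblings at 48 hpf. Its copy col18a1a was called lower in siblings at -0.22 ± 0.08 (adjusted p = 0.0273) and was not called in mutants at -0.11 ± 0.08 (adjusted p = 0.282), and the call in siblings was made in 9 of 18 settings. The type XV copies were both called lower in siblings, col15a1a at -0.58 and col15a1b at -0.69, and in mutants col15a1b was called lower at -0.55 while col15a1a was at -0.024 (adjusted p = 0.941).

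**Figure D2:**
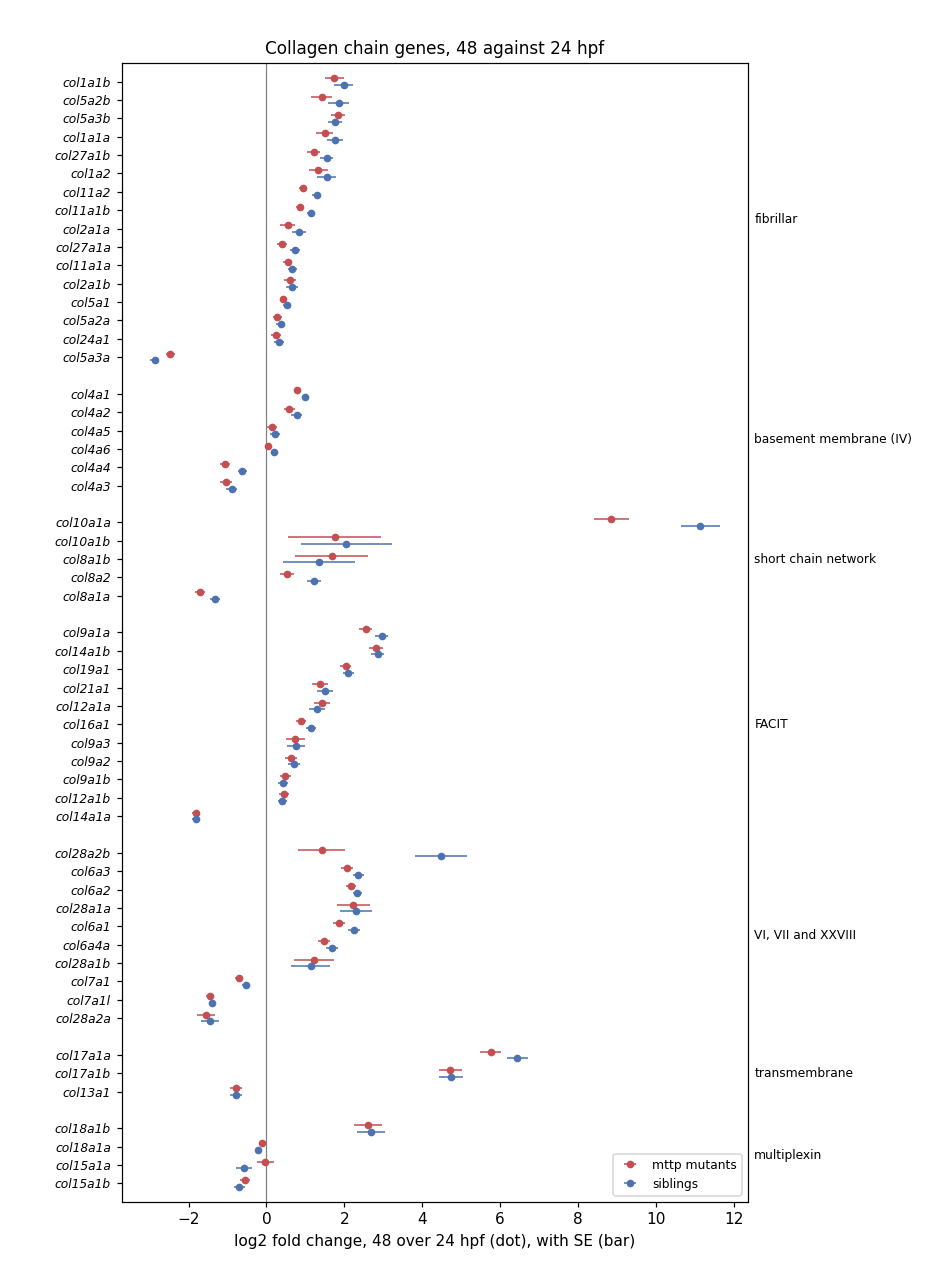
Log2 fold change of the 55 collagen chain genes, 48 over 24 hpf, in mutants (red) and siblings (blue), grouped by class and ordered within a class by the value in siblings; dots are estimates and bars their SE. Most dots lie right of 0, with medians of 0.79 in mutants and 1.13 in siblings with all libraries. The genes col5a3a, col14a1a and col28a2a lie far left of their b copies. The value of col10a1a depends on the prior count.

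Markers of the tissues that make these collagens also differed between the stages, as did 23.6% of all tested genes called higher and 19.6% called lower in mutants and 26.2% and 26.3% in siblings. Of 14 cartilage markers 9 rose and 1 fell in mutants and 10 rose and 1 fell in siblings, of 6 tendon markers 5 rose in each genotype, and of 8 muscle markers 6 rose and 2 fell in each. Summed muscle marker RNA ran from 30430 to 35710 CPM in mutants at 48 hpf and from 7262 to 9388 CPM in mutants at 24 hpf, and from 38110 to 45950 CPM in siblings at 48 hpf and from 7223 to 10610 CPM in siblings at 24 hpf. Of 11 notochord markers 2 rose and 7 fell in mutants and 2 rose and 6 fell in siblings, against the rise of the type II and XI chains. Among the 11 epidermis markers 1 rose and 5 fell in mutants, and 1 rose and 7 fell in siblings, unlike the type XVII genes. The part of tissue growth in the stage values was not tested.

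At 48 hpf the mutants had less RNA of 7 collagen chain genes from 6 of the 7 classes. These were col8a1a and col8a2 (type VIII, networks), col17a1a (type XVII, skin), col9a1a (type IX, cartilage), col4a4 (type IV, basement membrane), col11a2 (type XI, cartilage fibrils) and col7a1 (type VII, anchoring fibrils). The differences were modest, from 1.30-fold lower for col7a1 to 1.75-fold lower for col17a1a. The 7 chain genes made up 12.3% of the 57 members, against 1.8% of all tested genes called lower. The ceramide transfer gene col4a3bpa was called higher, 1.75% of the members against 4.26% of all tested genes. At 24 hpf no member was called in the same fit.

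Of the 3 type VIII genes 2 were called lower. RNA of col8a1a measured 61.9, 63.3 and 70.7 CPM in mutants, against 75.4, 96.3 and 106 CPM in siblings, a log2 fold change of -0.50 ± 0.13 (adjusted p = 0.0219). RNA of col8a2, the alpha 2 chain, measured 20.1, 16.7 and 15.1 CPM in mutants, against 28.9, 33.4 and 25.7 CPM in siblings, a log2 fold change of -0.76 ± 0.20 (adjusted p = 0.0303). The groups did not overlap for either gene. In both genotypes col8a1a was lower at 48 than at 24 hpf while col8a2 was called higher, at log2 fold changes of 0.52 in mutants and 1.22 in siblings. The call of col8a2 in mutants was made in 13 of 18 settings, and its libraries overlapped between the stages there. The type X gene col10a1a missed the threshold at -0.93 ± 0.27 (adjusted p = 0.0546), with every mutant library below every sibling library. It was called in 8 of 17 settings, but not in the reported one.

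Of the type VII and XVII genes of the skin's attachment to the dermis, col17a1a and col7a1 were called, and col17a1b and col7a1l were not. RNA of col17a1a, whose product sits in hemidesmosomes, was called at -0.81 ± 0.23 (adjusted p = 0.044), with 122 ± 11.4 CPM in mutants and 214 ± 44.5 CPM in siblings. Without sibling replicate 3 it was at -0.63 ± 0.23 (adjusted p = 0.129). Its copy col17a1b differed by less than its spread, at 20.8 ± 0.468 CPM in mutants and 24.9 ± 4.67 CPM in siblings, with overlapping libraries. RNA of col7a1 measured 134, 153 and 153 CPM in mutants, against 184, 169.9 and 217 CPM in siblings, a log2 fold change of -0.38 ± 0.11 (adjusted p = 0.0453). It was at -0.27 ± 0.10 (adjusted p = 0.151) without sibling replicate 3. None of 11 epidermis markers was called by edgeR at 48 hpf, with 0 at an unadjusted p under 0.05, and their summed RNA ran from 25910 to 30130 CPM in mutants, inside the sibling range of 23620 to 32180 CPM.

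Among cartilage collagens, col9a1a measured 66.9, 56.6 and 60.2 CPM in mutants, against 95.3, 83.4 and 100.4 CPM in siblings, a log2 fold change of -0.60 ± 0.17 (adjusted p = 0.0431). RNA of col11a2 measured 409, 442 and 447 CPM in mutants, against 545, 531 and 673 CPM in siblings, a log2 fold change of -0.43 ± 0.12 (adjusted p = 0.0453). Both were lower in each mutant library than in each sibling library. Neither was called without sibling replicate 3, with col9a1a at -0.55 ± 0.18 (adjusted p = 0.102) and col11a2 at -0.31 ± 0.12 (adjusted p = 0.153). The other type IX genes of the table, col9a1b, col9a2 and col9a3, were not called with all libraries, and col9a1b was at -0.16. Nor were the other type XI genes, col11a1a at -0.34 ± 0.12 (adjusted p = 0.126) and col11a1b at -0.29 ± 0.11 (adjusted p = 0.161). The main cartilage and notochord chain col2a1a was not called, at -0.63 ± 0.21 (adjusted p = 0.0878) with 2534, 2818 and 2749 CPM in mutants and 3355, 3321 and 5881 CPM in siblings, and was at -0.31 ± 0.17 (adjusted p = 0.392) without sibling replicate 3. Among 14 cartilage markers 3 were called lower, against 1.8% of all tested genes, and none higher. The 3 were acana (aggrecan), sox6 (a regulator of chondrocytes) and matn1 (matrilin). This list was chosen with earlier results of these data known, and the shorter list of the written design did not hold sox6. The summed RNA of the 14 markers ran from 1600 to 1668 CPM in mutants and from 1802 to 1865 CPM in siblings, without overlap. The part of fewer cartilage cells was not tested. Leaving out 1 library kept the count of markers called lower at 3 for sibling replicate 3. It gave 1 for sibling replicate 1 and for mutant replicate 2, and 0 for each of the other libraries.

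All 6 type IV genes had a negative log2 fold change, and each had an unadjusted p under 0.05, but after adjustment col4a4 alone was called. It measured 13.1, 17 and 18.7 CPM in mutants, against 22.6, 22.5 and 22.5 CPM in siblings, a log2 fold change of -0.47 ± 0.13 (adjusted p = 0.0415). The mutant libraries varied more than the sibling libraries and all lay below them. The ubiquitous pair gave -0.21 ± 0.09 for col4a1 (adjusted p = 0.196) and -0.32 ± 0.15 for col4a2 (adjusted p = 0.266), which without sibling replicate 3 were -0.14 and -0.15.

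**Figure D3:**
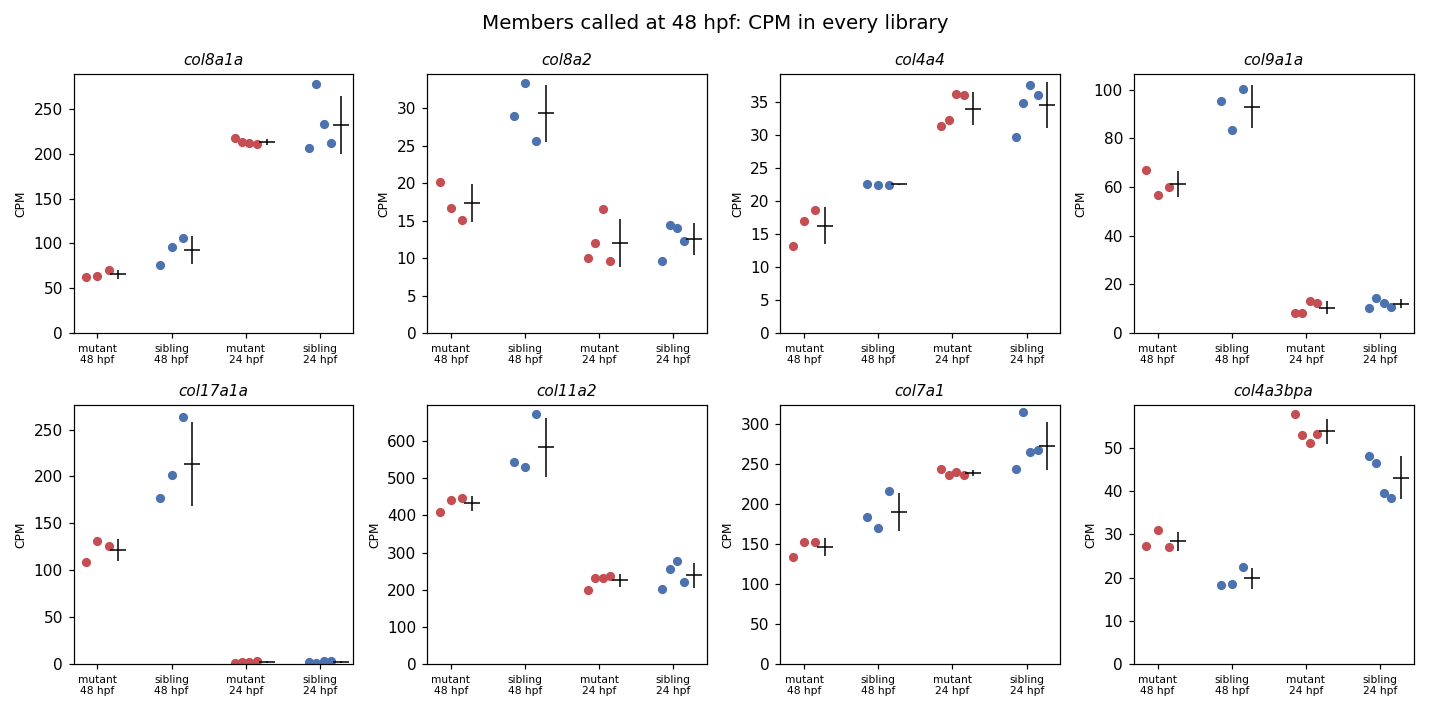
CPM of the 8 members called at 48 hpf in every library of the 4 groups, mutants in red and siblings in blue; black marks give the mean and SD. At 48 hpf the mutant points of the 7 collagen chains lie below all sibling points, those of col4a3bpa lie above them, and at 24 hpf the groups overlap except for col4a3bpa.

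The most abundant fibrillar transcripts were not called. RNA of col1a1a measured 4358, 4758 and 5275 CPM in mutants, against 5566, 5413 and 10600 CPM in siblings, a log2 fold change of -0.58 ± 0.23 (adjusted p = 0.167). The groups did not overlap, but 1 sibling library, replicate 3, stood far above the others. Without it the log2 fold change of col1a1a was -0.19 ± 0.18 (adjusted p = 0.669). The genes col1a1b and col1a2 stood at -0.58 and -0.57 with all libraries, with adjusted p-values of 0.246 and 0.252, and at -0.14 and -0.11 without replicate 3.

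Over the whole family, 47 of the 55 chains had a negative log2 fold change at 48 hpf, where 50.6% of all tested genes did, and the median was -0.29 against -0.0046 over all genes. In 25 of the 57 members every mutant library lay below every sibling library, against 10.6% of all tested genes, and in 2 members every mutant library lay above, against 12.0%. Negative values came from 15 of 16 fibrillar, 6 of 6 type IV, 5 of 5 short chain, 8 of 11 FACIT, 9 of 10 type VI, VII and XXVIII, 3 of 3 transmembrane and 1 of 4 multiplexin genes. The FACIT gene col12a1a was the other member with every mutant library above, at 0.25 ± 0.22 (adjusted p = 0.622), and was not called.

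These calls lay close to the threshold. Leaving out 1 library moved the 8 calls to 5 without sibling replicate 1, 3 without sibling replicate 2, 2 without sibling replicate 3, 3 without mutant replicate 1, 0 without mutant replicate 2 and 3 without mutant replicate 3. Without sibling replicate 3, col8a2 (-0.85 ± 0.21, adjusted p = 0.0249) and col4a3bpa stayed called, the median over the 55 chains was -0.15, and 26 members had every mutant library below every sibling library, against 19.1% of all tested genes in that smaller comparison. Without both libraries of low mitochondrial share, 8 members were called, 7 of them among the first 8. There col11a2 was not called, at -0.34 ± 0.11 (adjusted p = 0.0734), and col2a1a was, at -0.33 ± 0.09 (adjusted p = 0.0369). The median over the 55 chains was then -0.18. With the replicate number as a block more than 8 members were called. With the block and only the libraries compared, fewer than 8 were.

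The ceramide transfer gene col4a3bpa measured 27.3, 31.0 and 27.0 CPM in mutants, against 18.4, 18.6 and 22.5 CPM in siblings at 48 hpf, a log2 fold change of 0.52 ± 0.12 (adjusted p = 0.0115). At 24 hpf it measured 57.9, 53.0, 51.3 and 53.2 CPM in mutants, against 48.2, 46.5, 39.5 and 38.4 CPM in siblings, at 0.32 ± 0.10 (adjusted p = 0.0926). The groups did not overlap at either stage, and the difference between the stages' effects was not called. Its paralogue col4a3bpb was not called at either stage.

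At 24 hpf no member was called between mutants and siblings by edgeR's quasi-likelihood test, against 3.82% of all tested genes. At an unadjusted p under 0.05, 3 members were higher and 3 lower; DESeq2 called 1 member, col4a3bpa, and limma-voom 0. The chain genes with the smallest p were col15a1a, a multiplexin, at -0.49 ± 0.19 (adjusted p = 0.202), and col12a1b, a type XII chain, at 0.27 ± 0.11 (adjusted p = 0.239). RNA of col15a1a measured 6.10, 7.15, 7.10 and 5.27 CPM in mutants, against 7.05, 12.6, 8.81 and 7.60 CPM in siblings, with overlapping libraries. Of the 55 chains 44 had a negative log2 fold change, against 50.4% of all tested genes, with a median of -0.094 against -0.0028 over all genes. With library size as the only scaling the medians were 0.0072 for the chains and 0.099 for all genes, a difference of -0.0914 between chains and all genes, against -0.0915 with TMM factors. The median of the chains was -0.042, with 32 of 55 negative, without sibling replicate 2 at 24 hpf, -0.034 without mutant replicate 1, and -0.025, with 30 of 55 negative, without both libraries of low mitochondrial share.

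For type I collagen the 24 hpf groups overlapped. RNA of col1a1a measured 1488, 1729, 1756 and 1848 CPM in mutants, against 1518, 2769, 2330 and 1879 CPM in siblings, a log2 fold change of -0.32 ± 0.20 (adjusted p = 0.481). The mutant libraries lay close together and the sibling libraries spread widely, with the highest value in replicate 2.

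**Figure D4:**
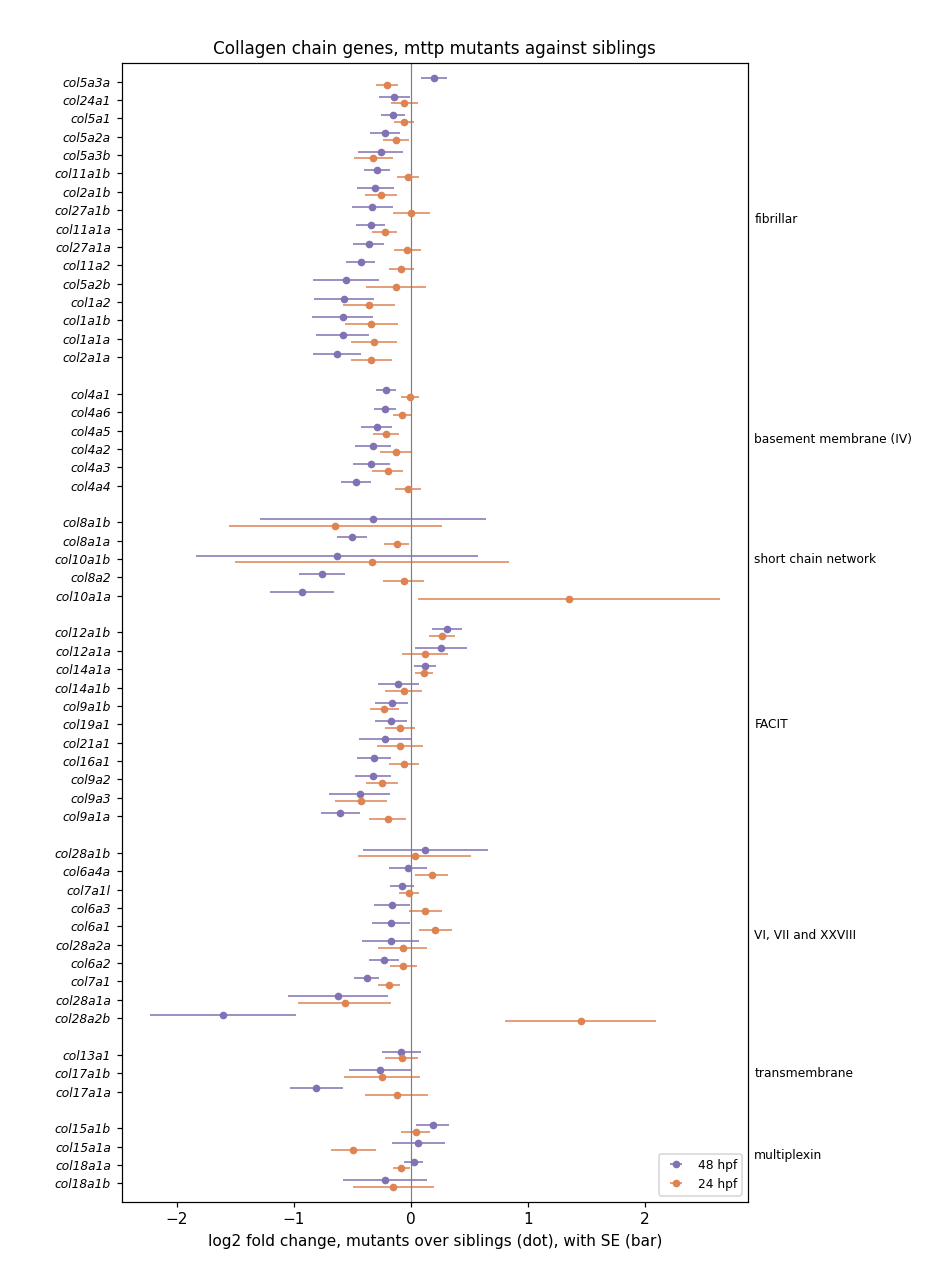
Log2 fold change of the 55 collagen chain genes, mutants over siblings, at 48 hpf (purple) and 24 hpf (orange), grouped by class and ordered within a class by the value at 48 hpf; dots are estimates and bars their SE. At 48 hpf 47 of 55 dots lie left of 0 with a median of -0.29, and 7 of them were called; at 24 hpf none was called.

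A call at 48 hpf and none at 24 hpf does not show that the effects differ, so the difference itself, 48 minus 24 hpf, was tested. No member was called by edgeR, DESeq2 or limma-voom, against 3.17% of all tested genes by edgeR, and at an unadjusted p under 0.05 the difference was above 0 in 1 member and below 0 in 5. For the chain genes called at 48 hpf it was -0.70 ± 0.26 for col8a2 (adjusted p = 0.191), -0.69 ± 0.35 for col17a1a (adjusted p = 0.37), -0.45 ± 0.17 for col4a4 (adjusted p = 0.195), -0.40 ± 0.23 for col9a1a (adjusted p = 0.433), -0.38 ± 0.17 for col8a1a (adjusted p = 0.264), -0.35 ± 0.16 for col11a2 (adjusted p = 0.306) and -0.19 ± 0.14 for col7a1 (adjusted p = 0.595). All 7 were below 0 and none passed the threshold after adjustment, while 4 of them, col8a2, col4a4, col8a1a and col11a2, had unadjusted p-values of 0.0178, 0.0186, 0.0338 and 0.0457. The smallest p belonged to the low-count gene col28a2b, at -3.06 ± 0.90 (adjusted p = 0.0767). It measured 0.812, 0.776 and 0.846 CPM in mutants, against 1.95, 3.19 and 2.29 CPM in siblings at 48 hpf, and 0.353, 0.350, 0.207 and 0.294 CPM in mutants, against 0.0636, 0, 0.124 and 0.243 CPM in siblings at 24 hpf. The mutant libraries lay below the sibling libraries at 48 hpf, while the groups overlapped at 24 hpf.

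Genes that process collagen were called in both directions. Among 27 genes of collagen modification and folding, 2 were called higher and none lower in mutants at each stage, 7.41% of the list against 4.26% of all tested genes called higher at 48 hpf and 1.5% at 24 hpf. At 24 hpf these were pdia4 and pdia6, disulfide isomerases of the endoplasmic reticulum that fold many secreted proteins. RNA of pdia4 measured 383, 325, 294 and 302 CPM in mutants, against 92.2, 74.2, 102 and 77.6 CPM in siblings, a log2 fold change of 1.91 ± 0.13 (adjusted p = 7.01e-08). At 48 hpf they were pdia6, at 0.75 ± 0.19 (adjusted p = 0.0224), and p4hb, the isomerase that is also the beta subunit of collagen prolyl 4-hydroxylase, at 0.41 ± 0.10 (adjusted p = 0.0185). RNA of p4hb averaged 301 ± 16.3 CPM in mutants and 226 ± 27.2 CPM in siblings at 48 hpf, without overlap. No other gene of the list was called by edgeR at either stage, among them the p4ha, plod, p3h and serpinh1 genes. The 2 calls at 48 hpf became 0 without sibling replicate 1 or sibling replicate 2, 3 without sibling replicate 3 and 1 without any 1 of the mutant libraries, and pdia6 missed the threshold (adjusted p = 0.0654) once mutant replicate 2 was left out.

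Among 17 genes of procollagen export 3, or 17.6%, were called higher in mutants at 48 hpf, against 4.26% of all tested genes, and none at 24 hpf. The 3 calls became 5 without sibling replicate 1, 4 without sibling replicate 3 and 2 without mutant replicate 2. The genes were kdelr2b, a receptor that returns escaped proteins to the endoplasmic reticulum, sec24d, a COPII coat subunit needed for collagen export in zebrafish cartilage, and tfg, an organiser of exit sites. RNA of kdelr2b measured 120, 126 and 119 CPM in mutants, against 62.4, 64.1 and 73.0 CPM in siblings, a log2 fold change of 0.87 ± 0.10 (adjusted p = 2.99e-05). The groups were far apart, and sec24d followed at 0.59 ± 0.12 (adjusted p = 0.0041) and tfg at 0.41 ± 0.10 (adjusted p = 0.016). The median over the 17 genes was 0.27, against -0.0046 over all genes.

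Outside the cell, among 19 genes of procollagen cleavage and cross-linking, 1 was called higher and 4, or 21.1%, lower at 48 hpf, against 1.8% of all tested genes called lower. The 4 became 2 when mutant replicate 1 or 2 was left out, and 3 when replicate 3 of either genotype was. The proteinases that trim procollagen did not move together. RNA of adamts3, which removes the amino-terminal propeptide, was higher at 0.50 ± 0.10 (adjusted p = 0.00465), with 31.5 ± 0.492 CPM in mutants and 22.3 ± 2.59 CPM in siblings. RNA of adamts14, of the same proteinase subfamily, was lower at -0.69 ± 0.15 (adjusted p = 0.00964), and bmp1a, which removes the carboxy-terminal propeptide, was lower at -0.35 ± 0.08 (adjusted p = 0.0101). The cross-linking transglutaminase tgm2a was lower at -0.85 ± 0.15 (adjusted p = 0.00175), with 22.7, 22.7 and 24.5 CPM in mutants and 32.4, 38.2 and 55.4 CPM in siblings. The other gene called lower is not named here, as at most 4 called genes of a list were named.

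Among 17 genes of collagen breakdown 1 was called at 48 hpf, 5.88% against 4.26% of all tested genes called higher. It was timp2b, an inhibitor of matrix metalloproteinases. It measured 39.5, 23.4 and 31.8 CPM in mutants, against 11, 9.62 and 8.35 CPM in siblings, a log2 fold change of 1.71 ± 0.18 (adjusted p = 9.35e-06). Among 15 collagen receptor genes 1, or 6.67%, was called lower at 48 hpf, against 1.8% of all tested genes. It was itga10, the alpha subunit of a collagen-binding integrin of chondrocytes, at -0.81 ± 0.20 (adjusted p = 0.0218), and of the leave-out settings it stayed called in that without sibling replicate 3. Of 25 laminin and basement membrane partners none was called at 48 hpf by edgeR, with 1 higher and 2 lower at an unadjusted p under 0.05, and 1 was called higher at 24 hpf, 4.00% against 1.5% of all tested genes, the fin fold gene frem2a, at 0.41 ± 0.11 (adjusted p = 0.043), a call made in 12 of 19 settings.

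Among 49 other matrix genes 2, or 4.08%, were called higher at 48 hpf, near the 4.26% of all tested genes, and 4, or 8.16%, lower, against 1.8%. Leaving out 1 library gave 1 to 3 higher and 2 to 5 lower, the most of both without sibling replicate 3. The fibronectin gene fn1b measured 945, 685 and 795 CPM in mutants, against 410.2, 295 and 190.4 CPM in siblings, a log2 fold change of 1.44 ± 0.21 (adjusted p = 0.000271). The other gene called higher is not named here. Lower were kera, the corneal proteoglycan keratocan, at -0.95 ± 0.20 (adjusted p = 0.00795), and acana at -0.84 ± 0.21 (adjusted p = 0.0231). So was si:ch211-43f4.1, the cartilage oligomeric matrix protein gene comp of RefSeq, at -0.73 ± 0.16 (adjusted p = 0.00846). The cartilage marker matn1 was lower at -2.99 ± 0.85 (adjusted p = 0.0458), a call made in 11 of 17 settings. The calls of acana and matn1 are the same ones counted among the cartilage markers above. At 24 hpf none of the export, cleavage, breakdown, receptor and other matrix genes was called by edgeR, and at an unadjusted p under 0.05 they held 2, 2, 0, 1 and 2 genes. Without both libraries of low mitochondrial share, modification and folding held 4 genes higher and 1 lower at 48 hpf, and 3 higher and 1 lower at 24 hpf, export 2 higher and cleavage 1 higher and 5 lower at 48 hpf.

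Other tissue markers gave few calls. At 48 hpf none of 8 muscle markers was called, although their summed RNA, from 30430 to 35710 CPM in mutants and from 38110 to 45950 CPM in siblings, did not overlap, and 2 were lower at an unadjusted p under 0.05. The 11 notochord markers summed higher in mutants, from 483 to 487 CPM against 402 to 424 CPM in siblings, without overlap. They did not all go 1 way, as 7 had a positive and 4 a negative log2 fold change. At an unadjusted p under 0.05 by edgeR, 3 were higher and 2 lower. After adjustment 1 of them, or 9.09%, was called higher, against 4.26% of all tested genes. It was cav1, a coat protein of the vacuolated cells' caveolae, at 0.38 ± 0.09 (adjusted p = 0.0154), a call made in 14 of 17 settings. None of the 7 bone, 6 tendon and 8 sclerotome markers was called by edgeR at either stage, and at an unadjusted p under 0.05 they held 0, 1 and 0 genes at 24 hpf and 0 at 48 hpf. Among 8 fin fold markers 1 was called at each stage, or 12.5%, bmp1a lower at 48 hpf, against 1.8% of all tested genes, and frem2a higher at 24 hpf, against 1.5%. Both calls were already counted above, bmp1a among the cleavage genes and frem2a among the basement membrane partners. At 24 hpf 0 of the 11 notochord, 14 cartilage and 8 muscle markers were called, with 0, 2 and 0 at an unadjusted p under 0.05, and the keratin gene cyt1 was the 1 epidermis marker called, at -0.41 ± 0.11 (adjusted p = 0.0499), against 2.33% of all tested genes called lower. It was called in 6 of 19 settings, the reported one included, and in none that left out 1 library.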

How the data were processed

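The deposited values were raw read counts per gene, made by the authors without normalization, in 1 table with 1 column per library. Per the submitters' processing notes the tools were FastQC 0.12.1, Trim Galore 0.6.10, STAR 2.7.10b and featureCounts 2.0.6 with the build GRCz11; the sources used here give no annotation, strand setting or rule for multimapping reads. Per the labels, TRIzol-extracted RNA was made into libraries by a NEBNext Ultra RNA kit that leaves strand unmarked, so overlapping genes cannot be told apart. No 2 libraries held identical values.

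All 14 libraries were fitted as 4 groups with edgeR 4.0.16 (limma 3.58.1, R 4.3.3; TMM factors, filterByExpr with a minimum count of 10, quasi-likelihood test, 10 residual degrees of freedom), with Benjamini-Hochberg adjustment over the 24424 genes kept. The fit was tested on simulated data with known changes in 1 group. Of 67 genes changed 1.5-fold it recovered 34.3% at 24 hpf, 22.4% at 48 hpf and 8.96% for the difference between the mutant effects. Of 67 genes changed 2-fold it recovered 67.2%, 62.7% and 50.7%. Most changes of 1.5-fold were thus missed in the simulation, whose changed genes had an average log2 CPM above 1. It called 127 genes at 48 hpf, where the data gave 1040 called higher and 440 called lower. The adjustment is stricter where fewer genes change, so the share recovered in the reported fit can differ and was not measured. The absence of a call does not show the absence of a change. Alternatives were DESeq2 1.42.0, limma-voom, other scalings and filters, a fold minimum of 2, leaving out libraries, the libraries compared only and the replicate number as a block. Same-numbered mutant and sibling libraries deviated together at 24 hpf (r from 0.068 to 0.306, 4 pairs) and at 48 hpf (r from 0.087 to 0.273, 3 pairs). So did same-numbered libraries of both stages in mutants (r from 0.114 to 0.283, 3 pairs). In siblings 3 of 6 libraries correlated best with their own number in the other stage. The number may thus mark pairing, but the labels do not say so. The p-values reported come from the fit without it.

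The members, lists and alternatives were chosen with earlier results of these data known. The marker lists used were longer than those of the written design, where sox6 was no cartilage marker and bmp1a no fin fold marker. The gene matn3b, a notochord marker in that design, was listed among the other matrix genes instead. Genes named were the members called or with the smallest p in a mutant comparison, up to 6 rising and 6 falling most between stages, the most abundant members, a fixed set of major chains, and up to 4 called members of each companion list. The stage values of the other type V, XI and XV genes, col8a2, col28a2b, col4a3, col4a4 and the type VI genes, and several differences between stages, were named after their values were seen. Of 267 list entries, 249 were found by symbol and 4 through a RefSeq synonym. Of the 57 members 55 were found in the RefSeq table of GRCz12tu, used for names, neighbours and overlaps only.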

Additional observations from a re-analysis of the deposited data

Results flagged for a closer look

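In 4 of 68 groups of 4 libraries, 1 library stood far from the rest by Dixon's criterion at the 95% level, which chance alone meets in about 1 in 20 groups. Mutant replicate 1 at 24 hpf had the lowest level of col11a2 at 199.5 CPM, of col2a1b at 599.1 CPM and of col12a1a at 115.4 CPM, where the other mutant libraries held at least 232, 672 and 225 CPM. Sibling replicate 4 at 24 hpf held 0.0608 CPM of col10a1a, from 2 counts, where the other sibling libraries held 0.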

How the results depend on the processing

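Of the 57 members, edgeR called 0 between mutants and siblings at 24 hpf, and 1 under DESeq2, with library size only, without both libraries of low mitochondrial share and with only the libraries compared; that gene was col4a3bpa, and leaving out any single library gave 0. At 48 hpf the 8 calls became 3 with only the libraries compared and 0 at a 2-fold minimum, and ran from 0 to 5 over the libraries left out. For the difference between stages the count of 0 became 1 without both low mitochondrial libraries and 0 to 1 over the libraries left out, the 1 without sibling replicate 4 at 24 hpf. Between stages the 51 calls in siblings became 31, and the 46 in mutants 27, at a 2-fold minimum. The median log2 fold change of the chains at 24 hpf, -0.094, was 0.0072 with library size only, a scaling that moved the median of all genes to 0.099. At 48 hpf that median ran from -0.33 to -0.15 over 17 settings. With the replicate number as a block, the counts were 0 at 24 hpf, 12 at 48 hpf, 1 for the difference, 51 in siblings and 47 in mutants, and with the block and only the libraries compared 2 at 24 hpf and 4 at 48 hpf. At 24 and 48 hpf every library correlated best with its own number in the other genotype, a hint from the data and not the design. The causes of these changes were not tested. The number of libraries, 3 or 4 a group, limits the precision, and col10a1a at 24 hpf rests on 0 to 4 counts a library.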
